A study of Homo sapiens with 16 samples.

Results

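The genes described here were 10 cytotoxic effector genes: the T-box transcription factor genes EOMES and TBX21, the granzyme genes GZMA, GZMB, GZMK and GZMM, the lytic protein genes PRF1 and GNLY, and the membrane protein genes KLRB1 and NKG7. They were taken by gene symbol from a table of 57820 genes, and all 10 were present. EOMES and GZMK had been selected on their log2 fold change between USP7 shRNA and scrambled Jurkat cells, and the others were chosen by function, with those values known. For that reason the Jurkat comparisons of shRNA with either control, of the controls with each other and between the hairpins are given below as a description. The tests are those in HSB-2 and between the wild-type lines. The genes and lists were chosen with earlier results of these data known, so these tests may not be independent of the choice either.

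RNA was measured after partial knock-down of USP7, which encodes a deubiquitylating enzyme, in 2 established cell lines of T-lineage acute lymphoblastic leukemia (T-ALL). Jurkat and HSB-2 both carry the label TAL1+, for the transcription factor that is aberrantly active in this subtype. Each line gave 4 groups of 2 libraries, namely wild-type cells, a scrambled hairpin control, USP7 shRNA-4057 and USP7 shRNA-4058. The labels call the control scrambled siRNA in some fields and shRNA scramble in the series' design, and it is taken here as a hairpin. Hairpins were delivered by lentivirus, and transduced cells were sorted for GFP or selected with puromycin; the wild-type label names no such step. Jurkat and HSB-2 are each a single line, so a difference between them is a difference between 2 cultures. Nothing in the sources says that the 2 libraries of a group came from separate transductions, so the p-values below measure the spread between these libraries, which may be technical.

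Cytotoxic lymphocytes kill by releasing granules onto a target cell. Perforin, the product of PRF1, forms pores in the target membrane, granzymes are serine proteases that enter the target and cleave its proteins, and granulysin, the product of GNLY, permeabilizes microbial and cell membranes. EOMES and T-bet (the product of TBX21) are related T-box factors that direct the effector programs of CD8 T cells and natural killer (NK) cells. NKG7 encodes a granule membrane protein that takes part in exocytosis, and KLRB1 encodes CD161, a C-type lectin-like receptor of NK cells and some T cells. T-ALL cells are arrested thymocyte-like blasts and are not cytotoxic cells by origin.

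In GRCh37, EOMES (ENSG00000163508) spanned chr3:27757440-27764202 on the minus strand and TBX21 (ENSG00000073861) chr17:45810602-45823488 on the plus strand. GZMK (ENSG00000113088, chr5:54320084-54330398) and GZMA (ENSG00000145649, chr5:54398474-54406080) lay beside each other on the plus strand. GZMB (ENSG00000100453) was at chr14:25100160-25103473 on the minus strand and GZMM (ENSG00000197540) at chr19:544034-549924 on the plus strand. PRF1 (ENSG00000180644, chr10:72357104-72362515, minus), GNLY (ENSG00000115523, chr2:85912298-85925975, plus), KLRB1 (ENSG00000111796, chr12:9747147-9760512, minus) and NKG7 (ENSG00000105374, chr19:51874860-51875955, minus) completed the set. PRF1 overlapped PALD1 on the other strand, GNLY an antisense pseudogene (GPR160P1), and GZMB, GZMK and KLRB1 antisense long noncoding RNAs. The strand setting of the counting was not given in the sources used here, so reads of these pairs could not be told apart with certainty; PALD1 stood at 25.5 to 55.1 CPM (counts-per-million of the library) in the group means, above PRF1 in every group.

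Upstream sequence was available for 8 of the 10 genes from RefSeq (GRCh38.p14) and was placed on GRCh37 by exact match. It is shown for the 5 genes that were higher under USP7 shRNA than in both controls in HSB-2, because these letters are what the members that moved together there carry at their starts. Each stretch is the part of the 250 bases before the RefSeq start that holds no annotated exon base, 5′ to 3′ along the gene. Capitals mark the T-box core GTGTGA (or its reverse complement TCACAC), the kind of element that EOMES and T-bet bind, and the E-box CANNTG, bound by E proteins and TAL1.
GNLY (chr2:85921231-85921415, plus strand): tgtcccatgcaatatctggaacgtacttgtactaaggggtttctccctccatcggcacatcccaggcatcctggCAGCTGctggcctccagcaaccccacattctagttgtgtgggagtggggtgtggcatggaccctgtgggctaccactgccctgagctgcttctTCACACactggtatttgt
NKG7 (chr19:51875956-51876158, minus strand): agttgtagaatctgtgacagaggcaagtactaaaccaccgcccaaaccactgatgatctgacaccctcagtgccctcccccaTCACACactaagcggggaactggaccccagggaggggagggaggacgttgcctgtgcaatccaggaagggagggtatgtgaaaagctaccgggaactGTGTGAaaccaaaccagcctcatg
GZMA (chr5:54398224-54398473, plus strand): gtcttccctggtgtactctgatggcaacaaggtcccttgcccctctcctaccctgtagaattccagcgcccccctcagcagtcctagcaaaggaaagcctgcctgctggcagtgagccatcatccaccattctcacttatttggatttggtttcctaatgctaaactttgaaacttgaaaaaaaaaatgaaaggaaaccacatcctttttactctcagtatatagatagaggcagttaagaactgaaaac
TBX21 (chr17:45810352-45810601, plus strand): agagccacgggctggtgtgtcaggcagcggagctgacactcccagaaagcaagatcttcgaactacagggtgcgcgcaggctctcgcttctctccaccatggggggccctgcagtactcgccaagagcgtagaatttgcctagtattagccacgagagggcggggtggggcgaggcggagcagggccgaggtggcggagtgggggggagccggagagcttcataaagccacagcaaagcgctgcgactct
KLRB1 (chr12:9760513-9760762, minus strand): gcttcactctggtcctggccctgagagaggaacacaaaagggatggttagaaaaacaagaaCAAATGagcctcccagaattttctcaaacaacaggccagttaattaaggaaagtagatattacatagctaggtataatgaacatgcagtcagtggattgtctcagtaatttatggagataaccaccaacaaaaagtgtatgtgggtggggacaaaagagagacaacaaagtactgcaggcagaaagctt
The GNLY stretch, which lay inside the annotated gene body between exons, held 1 T-box core and 1 E-box in 185 bases. The NKG7 stretch held 2 T-box cores and no E-box in 203 bases. A T-box core was present in 7.5% of all 35116 RefSeq promoter windows cut to the 185 bases of GNLY and in 8.20% of those cut to the 203 bases of NKG7. KLRB1 held 1 E-box, GZMA neither motif, and TBX21 neither motif. Over the full 250 bases, 3 of the 8 genes held a T-box core against 9.90% of all promoters, 6 held an E-box against 61.8%, and 4 held the RUNX core TGTGGT (or ACCACA) against 11%. Both strands were searched, matches of different motifs were counted separately, and a match describes letters only.

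Total counts per library were 86892818 to 110265819 in Jurkat and 76602847 to 235467749 in HSB-2, so a floor of 3 counts corresponded to 0.0127 to 0.0392 CPM. USP7 itself checked the labels: in Jurkat its libraries were at 396 and 386 CPM (wild-type), 384 and 387 (scrambled), 140 and 145 (shRNA-4057) and 244 and 242 (shRNA-4058), and in HSB-2 at 237 and 243, 227 and 220, 144 and 149, and 162 and 156, in the same order. USP7 was lower under shRNA-4057 than under shRNA-4058 in both lines, by a log2 difference of -0.77 in Jurkat and -0.12 in HSB-2. All 10 T-lineage markers found in the table averaged at least 1 CPM in both lines, while 0 of 9 NK cell markers did, and the NK list summed to 0.867 to 1.71 CPM in Jurkat libraries and 0.353 to 0.652 in HSB-2 libraries. The B cell list summed to 22.0 to 64.8 CPM in Jurkat, nearly all of it CD79A, and to 1.17 to 4.61 CPM in HSB-2, where PAX5 and CD79A led it. Monocyte, erythroid and epithelial lists stayed under 2 CPM in sum in every library. In bulk RNA, fewer expressing cells and less RNA per cell cannot be told apart.

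Before any hairpin, the levels of most of the cytotoxic set differed between the lines. Wild-type Jurkat cells carried EOMES, GZMK, GZMM and PRF1 at higher levels, and wild-type HSB-2 cells GNLY, NKG7, KLRB1, TBX21 and GZMA. In wild-type Jurkat, EOMES was at 23.3 and 22.3 CPM, against 4.82 and 4.90 in HSB-2. GZMK, a granzyme of early effector and memory cells, was at 12.1 and 11.2 CPM in Jurkat against 0.0351 and 0.0315 in HSB-2. GNLY showed the opposite order, with 0.120 and 0.0667 CPM in Jurkat and 72.7 and 70.7 in HSB-2, and NKG7 was at 6.52 and 8.80 CPM against 134 and 133. The libraries of the 2 lines did not overlap for 9 of the 10 genes. The share of all genes without overlap was not computed, so nothing is read from that count. By edgeR's quasi-likelihood test with Benjamini-Hochberg adjustment, 9 of 10 genes differed (4 higher and 5 lower in Jurkat), where 68.1% of all genes tested were called. The log2 differences (Jurkat minus HSB-2) ran from 8.38 ± 0.20 (SE) for GZMK to -9.52 ± 0.12 for GNLY. GZMK had only 8 and 3 counts in wild-type HSB-2. In wild-type Jurkat, GNLY had 14 and 6 counts and KLRB1 4 and 2. The sizes for GZMK, GNLY and KLRB1 rest on those few counts, so no p is given for them. Their calls are in the count of 9, and nothing is read from them. TBX21 differed by -2.32 ± 0.14 and EOMES by 2.23 ± 0.08, so the 2 T-box genes stood in opposite order between the lines. GZMB, the granzyme best known as an activator of caspases, had 4 to 35 counts in these libraries and was not called (log2 difference -0.89 ± 0.67, adjusted p = 0.248).

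**Figure D1:**
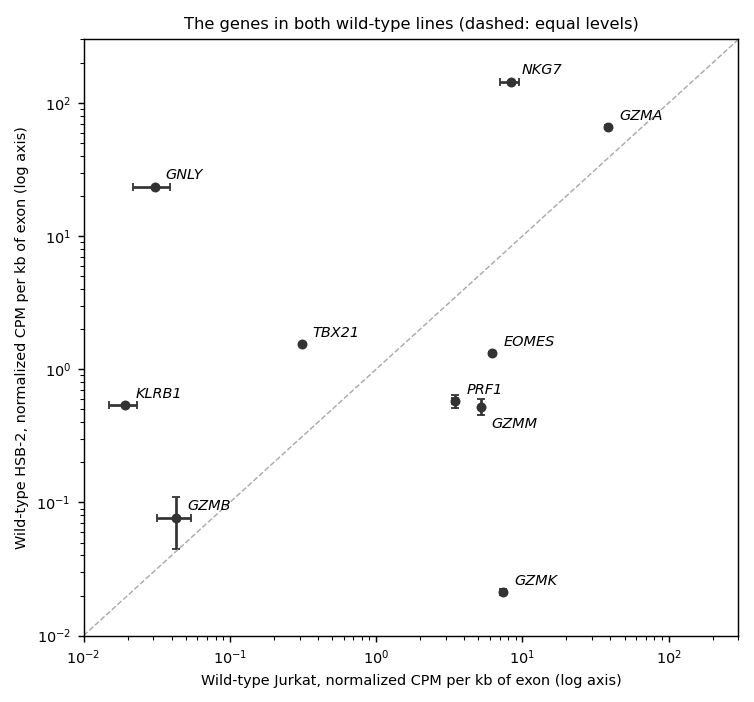
Mean level of each gene in wild-type Jurkat (x axis) and wild-type HSB-2 (y axis), in normalized CPM per kb of exon on log axes, with bars from the lower to the higher of the 2 libraries. GZMK, EOMES, GZMM and PRF1 lie below the line of equal levels, and GNLY, NKG7, KLRB1, TBX21 and GZMA above it.

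Divided by exon length, the levels ranked GZMA first in wild-type Jurkat at 38.7 CPM per kb, then NKG7 (8.32), GZMK (7.43), EOMES (6.23), GZMM (5.19) and PRF1 (3.49). The Jurkat ranges of NKG7 and GZMK overlapped, so their order was not resolved, and TBX21 followed at 0.310 CPM per kb. GZMB, GNLY and KLRB1 were the lowest, at 0.0431, 0.0306 and 0.0191 CPM per kb, each overlapping the next. In wild-type HSB-2 the order was NKG7 (145 CPM per kb), GZMA (65.5), GNLY (23.5), TBX21 (1.55) and EOMES (1.33), without overlap. PRF1 (0.578), KLRB1 (0.538) and GZMM (0.525) could not be ordered there, and GZMB (0.0769) and GZMK (0.0213) closed the list. GZMA was thus among the 2 highest in both lines, and it was the first of the 10 in every Jurkat group and the second, after NKG7, in every HSB-2 group.

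**Figure D2:**
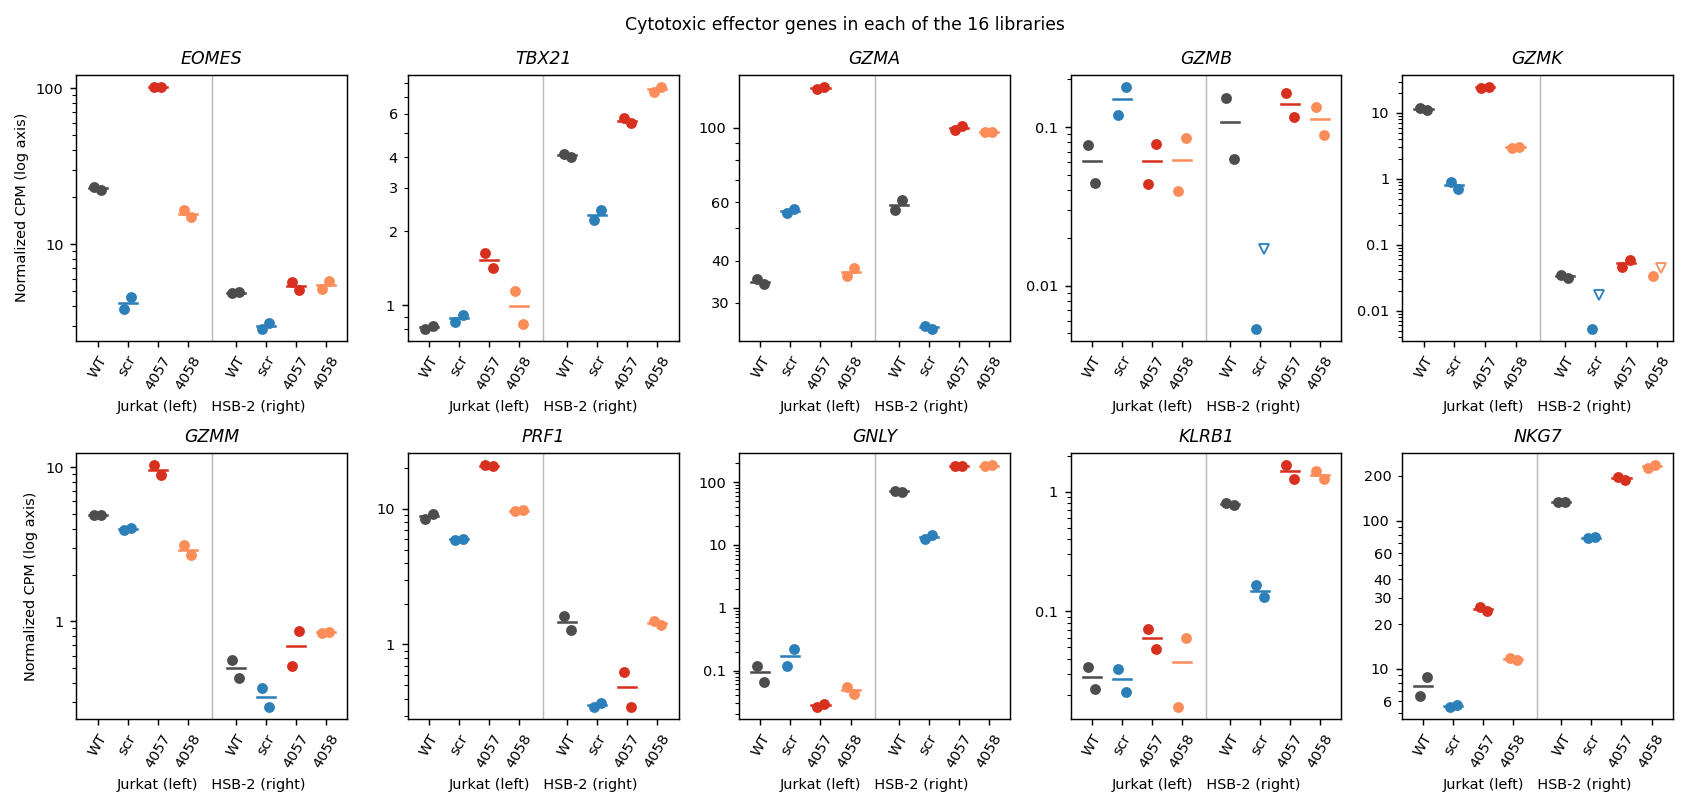
Normalized CPM (log axis) of each gene in all 16 libraries, with Jurkat groups to the left and HSB-2 groups to the right of the grey line; points are libraries, short bars group means, and open triangles libraries with 0 counts, drawn at the level of 3 counts. In HSB-2 the scrambled libraries (scr) are the lowest group for all 10 genes, apart from 1 shRNA library each for PRF1 and GZMK.

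In HSB-2, USP7 shRNA was accompanied by higher levels of most of the set, with the largest log2 difference among genes counted in every library for GNLY, and the scrambled control stood below wild-type for every gene of it. Against scrambled, 8 of the 9 genes tested were higher and 0 lower, where 38.1% of all genes tested were called and 20.3% were called higher. GZMB is among the 8, but had 1 count in the scrambled pair and entered the test through the shRNA libraries alone, so its call adds nothing. Against wild-type, 5 of 9 were higher and 0 lower (GNLY, KLRB1, GZMA, TBX21 and NKG7), where 25.1% of genes were called and 13.3% called higher. The median log2 difference over the tested genes was 1.51 against scrambled and 0.67 against wild-type, while over all genes it was -0.02 and -0.01. Both comparisons use the same 4 shRNA libraries. The T-lineage markers moved alongside: their 10 genes summed to 3804 to 4455 CPM in the shRNA libraries, 2899 to 3014 in scrambled and 3370 to 3376 in wild-type. The B cell list followed the same order at a low level (3.40 to 4.61, 1.17 to 1.28 and 3.21 to 3.22 CPM), and the NK list was likewise lowest in scrambled (0.353 to 0.376 CPM, against 0.406 to 0.652 in the shRNA libraries and 0.505 to 0.579 in wild-type). The part of these lists in the result was not tested.

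Among the transcription factor genes, TBX21 was at 4.11 and 4.02 CPM in wild-type HSB-2, 2.22 and 2.43 in scrambled, 5.74 and 5.50 under shRNA-4057 and 7.38 and 7.73 under shRNA-4058. The 4 shRNA libraries lay above all 4 controls. TBX21 was higher by 1.51 ± 0.17 on the log2 scale than scrambled (adjusted p = 0.000182) and by 0.69 ± 0.16 than wild-type (adjusted p = 0.0147). EOMES was at 4.82 and 4.90 CPM in wild-type, 2.87 and 3.12 in scrambled, 5.70 and 5.09 under shRNA-4057 and 5.15 and 5.76 under shRNA-4058. Its shRNA libraries exceeded both controls, but only narrowly for wild-type: the log2 difference was 0.86 ± 0.12 against scrambled (adjusted p = 0.00056) and 0.15 ± 0.10 against wild-type (adjusted p = 0.328, not called).

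Of the granzymes, GZMA, a tryptase that triggers caspase-independent death, was at 56.7 and 60.7 CPM in wild-type HSB-2, 25.5 and 25.1 in scrambled, 98.8 and 101 under shRNA-4057 and 97.4 and 97.1 under shRNA-4058. All 4 shRNA libraries were above the controls. The log2 difference was 1.97 ± 0.06 from scrambled (adjusted p = 1.08e-07) and 0.74 ± 0.05 from wild-type (adjusted p = 0.000125). GZMM, which cleaves after methionine or leucine, was at 0.561 and 0.431 CPM in wild-type, 0.369 and 0.279 in scrambled, 0.514 and 0.869 under shRNA-4057 and 0.837 and 0.859 under shRNA-4058. It rose by 1.25 ± 0.29 against scrambled (adjusted p = 0.00832), a call lost without the second scrambled library (adjusted p = 0.0921), and its difference from wild-type was 0.61 ± 0.28 (adjusted p = 0.142).

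GZMB and GZMK were barely detected in HSB-2. GZMB had 35 and 6 counts in wild-type, 1 and 0 in scrambled, 14 and 12 under shRNA-4057 and 28 and 6 under shRNA-4058. With 1 count in the scrambled pair against 60 in the 4 shRNA libraries, the depth-adjusted ratio was 46.8 (exact 95% interval 8.09 to 1879, for counting error only), and wild-type against scrambled gave 46.0 (7.80 to 1860). It entered the test against scrambled through the libraries where it was high, so no p is given for that difference, and its log2 difference from wild-type was 0.14 ± 0.48 (adjusted p = 0.862). GZMK had 8 and 3 counts in wild-type, 1 and 0 in scrambled, 4 and 6 under shRNA-4057 and 7 and 0 under shRNA-4058. It was too low to be tested in the pooled comparisons, and its shRNA-to-scrambled ratio of 13.3 had an interval of 2.08 to 554.

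Of the lytic protein genes, GNLY was at 72.7 and 70.7 CPM in wild-type HSB-2, 12.6 and 14.3 in scrambled, 183 and 181 under shRNA-4057 and 179 and 188 under shRNA-4058. Both hairpins sat together, far above wild-type, and wild-type far above scrambled. The log2 difference was 3.77 ± 0.08 against scrambled (adjusted p = 2.53e-08) and 1.35 ± 0.05 against wild-type (adjusted p = 1.43e-05). The antisense pseudogene within GNLY stood at 0.0139 to 0.188 CPM in the HSB-2 group means and was at 0 in all Jurkat groups. PRF1 was at 1.63 and 1.28 CPM in wild-type, 0.348 and 0.370 in scrambled, 0.630 and 0.348 under shRNA-4057 and 1.49 and 1.39 under shRNA-4058. Both shRNA-4058 libraries, at about the wild-type level, and 1 of the 2 shRNA-4057 libraries were above scrambled. Over both hairpins PRF1 differed from scrambled by 1.44 ± 0.53 (adjusted p = 0.0604) and from wild-type by -0.59 ± 0.48 (adjusted p = 0.406), and neither was called, although the former passed without the first or the second shRNA-4057 library (adjusted p = 0.0460 and 0.00490).

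Of the membrane protein genes, KLRB1 was at 0.811 and 0.778 CPM in wild-type HSB-2, 0.166 and 0.131 in scrambled, 1.68 and 1.28 under shRNA-4057 and 1.5 and 1.29 under shRNA-4058. The 3 kinds of group were fully separated. Its log2 difference was 3.27 ± 0.25 against scrambled (adjusted p = 2.01e-05) and 0.85 ± 0.19 against wild-type (adjusted p = 0.0132). NKG7 was at 134 and 133 CPM in wild-type, 75.8 and 77.5 in scrambled, 197 and 189 under shRNA-4057 and 227 and 237 under shRNA-4058. It was higher by 1.47 ± 0.10 than scrambled (adjusted p = 8.81e-06) and by 0.67 ± 0.09 than wild-type (adjusted p = 0.00178). Without either wild-type library, the calls of TBX21 and KLRB1 against wild-type were lost (adjusted p = 0.114 to 0.126), and GNLY, GZMA and NKG7 remained.

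**Figure D3:**
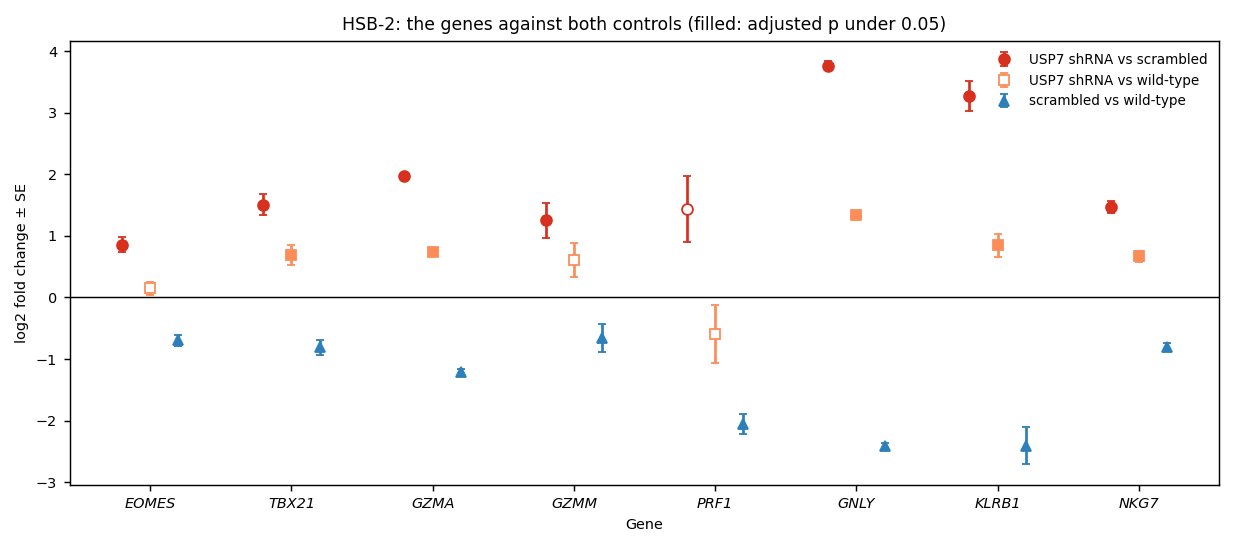
Log2 fold change ± SE of 8 genes in HSB-2 for USP7 shRNA against scrambled (circles), USP7 shRNA against wild-type (squares) and scrambled against wild-type (triangles), filled where the adjusted p was under 0.05. GZMB and GZMK are not drawn because the scrambled pair held 1 count of each; all 8 triangles lie below 0, and 5 genes have filled symbols above 0 against both controls.

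The HSB-2 controls differed from each other across the whole set. Scrambled was called below wild-type for all 10 genes, where 34.1% of genes were called and 17.9% called lower. GNLY (-2.42 ± 0.06, adjusted p = 2.85e-19), KLRB1 (-2.41 ± 0.30, adjusted p = 7.88e-07) and PRF1 (-2.06 ± 0.17, adjusted p = 6.98e-10) had the largest log2 differences among genes with counts in every library. GZMA followed at -1.21 ± 0.04, TBX21 at -0.81 ± 0.12, NKG7 at -0.80 ± 0.06, EOMES at -0.70 ± 0.09 and GZMM at -0.66 ± 0.23. GZMB and GZMK were called as well, on 1 count each in the scrambled pair, and nothing is read from these calls. The calls of GZMK and GZMM were lost without the first wild-type library (adjusted p = 0.110 and 0.441) and without the second scrambled library (0.0978 and 0.203). USP7 differed little between these controls (log2 difference -0.10 ± 0.03). This comparison shares its scrambled libraries with the one above, so a low scrambled level enters both.

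Each hairpin alone was above scrambled for most of the set in HSB-2, and the hairpins differed from each other for 3 genes. Against scrambled, shRNA-4057 had 9 of 10 genes higher, where 43.6% of genes were called and 21.9% called higher, and its GZMM call was lost without the second shRNA-4057 library (adjusted p = 0.0826). shRNA-4058 had 10 of 10 higher (52.8% called, 26.6% called higher), although the GZMK call rested on 7 and 0 counts and its log2 difference was -1.87 without the first shRNA-4058 library. The counts of both hairpins include GZMB and GZMK, with 1 count each in the scrambled pair, and nothing is read from those calls. Between the hairpins, 3 of 10 genes differed, where 24.8% of genes were called and 14.3% called lower. PRF1 was lower under shRNA-4057 by 1.61 ± 0.19 on the log2 scale (adjusted p = 8.32e-07), TBX21 by 0.42 ± 0.11 (adjusted p = 0.00761) and NKG7 by 0.26 ± 0.06 (adjusted p = 0.00217), and TBX21 was lost without the second shRNA-4057 library (adjusted p = 0.0744). For GNLY the difference between the hairpins was -0.02 ± 0.05, and for GZMA 0.04 ± 0.04. Against wild-type, shRNA-4057 had 5 genes higher and PRF1 lower (-1.65 ± 0.18, adjusted p = 1.89e-07), where 31.7% of genes were called. shRNA-4058 had 6 higher against wild-type (44.0% called, 23.0% called higher), the additional gene being GZMM (0.71 ± 0.21, adjusted p = 0.00657), and its PRF1 level differed from wild-type by -0.04 ± 0.14. The KLRB1 calls against wild-type were lost without 1 library for either hairpin (adjusted p = 0.0514, 0.0533 and 0.128 for shRNA-4057, 0.0564 and 0.130 for shRNA-4058), as was GZMM without the first shRNA-4058 library (adjusted p = 0.0581).

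In Jurkat, EOMES and GZMK spanned the widest range over the groups, and both hairpins and both controls stood apart. EOMES was at 23.3 and 22.3 CPM in wild-type, 3.82 and 4.55 in scrambled, 101 and 102 under shRNA-4057 and 16.4 and 14.9 under shRNA-4058. Thus shRNA-4057 lay above both controls and shRNA-4058 between them. GZMK was at 12.1 and 11.2 CPM in wild-type, 0.911 and 0.709 in scrambled, 24.2 and 25.1 under shRNA-4057 and 2.96 and 3.06 under shRNA-4058, in the same order of groups as EOMES. Relative to scrambled, the log2 difference over both hairpins was 3.83 for EOMES and 4.11 for GZMK, and relative to wild-type it was 1.39 and 0.27. The scrambled control itself was below wild-type by 2.44 for EOMES and by 3.85 for GZMK on the log2 scale. For shRNA-4058 alone, the difference from wild-type was -0.54 for EOMES and -1.95 for GZMK.

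The other T-box gene, TBX21, stayed low in Jurkat: 0.804 and 0.822 CPM in wild-type, 0.857 and 0.910 in scrambled, 1.63 and 1.42 under shRNA-4057 and 1.14 and 0.839 under shRNA-4058. GZMA was at 35.2 and 34.2 CPM in wild-type, 55.6 and 57.1 in scrambled, 130 and 133 under shRNA-4057 and 36.0 and 38.2 under shRNA-4058. Here scrambled exceeded wild-type, and shRNA-4058 lay near wild-type while shRNA-4057 was above all. GZMM was at 4.93 and 4.89 CPM in wild-type, 3.92 and 4.06 in scrambled, 10.3 and 8.86 under shRNA-4057 and 3.12 and 2.70 under shRNA-4058. PRF1 was at 8.38 and 9.18 CPM in wild-type, 5.92 and 6.0 in scrambled, 21.0 and 20.4 under shRNA-4057 and 9.59 and 9.70 under shRNA-4058. Both hairpins were above scrambled and above wild-type for PRF1, shRNA-4058 by a small margin. NKG7 was at 6.52 and 8.80 CPM in wild-type, 5.51 and 5.69 in scrambled, 26.1 and 24.3 under shRNA-4057 and 11.8 and 11.4 under shRNA-4058, with all 4 shRNA libraries above all controls. GZMB, GNLY and KLRB1 had between 2 and 21 counts in every Jurkat library, and their differences there rest on that depth.

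Over both hairpins in Jurkat, 5 of 9 tested genes were called against scrambled (EOMES, GZMK, NKG7 and PRF1 higher, GNLY lower on 3 to 21 counts), where 28.0% of genes were called. That contrast chose members, so nothing is read from the count, which was 0 without either scrambled library and 3 without the second shRNA-4057 library. Against wild-type, 0 of 7 tested genes were called by edgeR, where 8.41% of genes were called; 2 had an unadjusted p under 0.05, and DESeq2 called 1, NKG7. Each hairpin on its own gave other counts: shRNA-4057 had 7 higher and 1 lower of 10 against scrambled (50.0% of genes called), and shRNA-4058 4 higher and 3 lower (46.5% called), with 1 lower without the second scrambled library and 2 lower without the second shRNA-4058 library. Against wild-type, shRNA-4057 had 7 higher and 1 lower (36.7% called), the lower gene being GNLY, which was lost without the first wild-type library or either shRNA-4057 library, and shRNA-4058 1 higher, NKG7, and 3 lower, EOMES, GZMK and GZMM (35.9% called). Between the Jurkat controls, GZMA was higher in scrambled and EOMES, GZMK, NKG7 and PRF1 lower, where 25.9% of genes were called. The T-lineage markers summed to 2458 to 2572 CPM in the shRNA libraries against 2995 to 3349 in the controls. The B cell list summed to 22.0 to 23.0 against 35.9 to 64.8, and the NK list to 1.64 to 1.71 against 0.867 to 1.26. Different NK genes led the hairpin sums. KLRD1 was at 0.905 CPM under shRNA-4057 and 0.220 under shRNA-4058 (wild-type 0.162, scrambled 0.0107). NCAM1 was at 0.474 and 1.28 CPM (wild-type 0.566, scrambled 0.958). The part of these lists in the result was not tested.

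**Figure D4:**
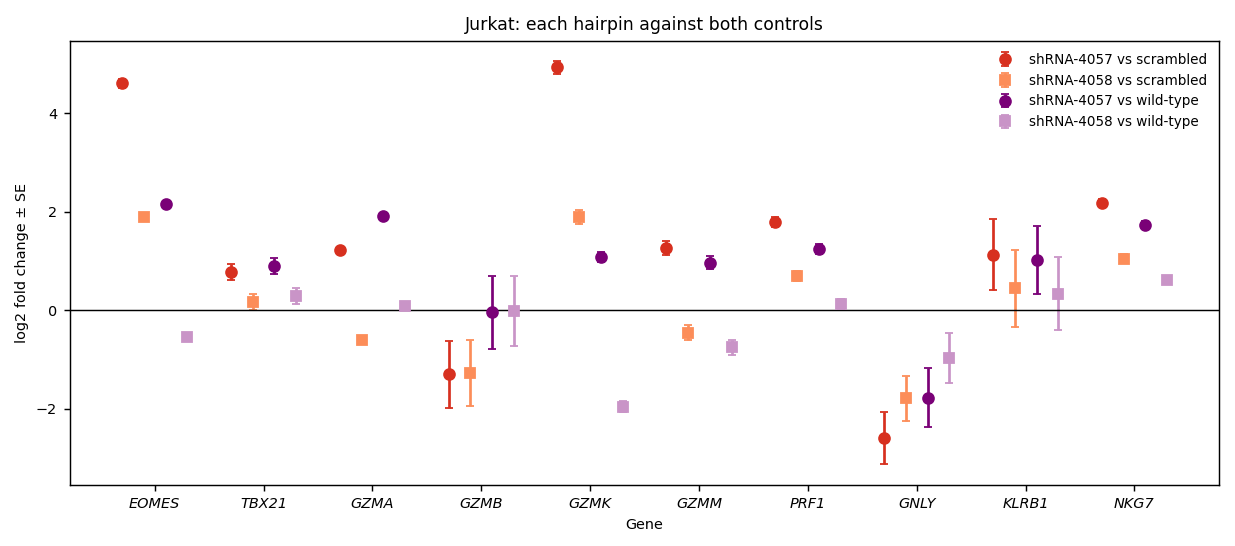
Log2 fold change ± SE of each gene in Jurkat for shRNA-4057 (circles) and shRNA-4058 (squares) against scrambled (red and orange) and against wild-type (purple and pink), as a description. EOMES and GZMK lie above 0 for both hairpins against scrambled, and for shRNA-4057 but not shRNA-4058 against wild-type.

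The difference between the hairpins in Jurkat is another contrast than the one behind the choice of genes, although it uses the same shRNA libraries. Selection on the value over both hairpins favours genes that are extreme under 1 of them. This contrast is therefore given as a description, and nothing is read from its count. There, 7 of 10 genes were higher under shRNA-4057 than under shRNA-4058 and 0 lower, where 33.9% of genes were called and 17.7% called higher. GZMK differed by 3.03 ± 0.11, EOMES by 2.70 ± 0.07 and GZMA by 1.83 ± 0.04. GZMM (1.72 ± 0.14), NKG7 (1.12 ± 0.07), PRF1 (1.10 ± 0.10) and TBX21 (0.62 ± 0.15) followed, and TBX21 was lost without the second shRNA-4058 library (adjusted p = 0.0726). The 3 genes of low count, GZMB, GNLY and KLRB1, were not called. USP7 differed between these hairpins as well, at 140 and 145 CPM under shRNA-4057 and 244 and 242 under shRNA-4058, and its part in the result was not tested. In HSB-2, where USP7 under the hairpins was 144 to 162 CPM, EOMES and GZMA did not pass the test between hairpins, and PRF1, TBX21 and NKG7 differed in the other direction.

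The wider list of 64 cytotoxic-lineage genes (granule proteins, exocytosis machinery, effector receptors, cytokines, transcription factors and cytokine receptors, and CD8), of which 61 were found in the table, was mostly higher in HSB-2 under USP7 shRNA than in scrambled. Of 42 tested, 30 were higher and 3 lower, with a median log2 difference of 1.08, where 38.1% of all genes were called and 20.3% called higher. Against wild-type, 11 of 42 were higher and 1 lower, with a median of 0.19. These 12 calls are close in number to the 25.1% called among all genes, where 13.3% were called higher. By role against scrambled, to be read beside the same 20.3%, 6 of 8 tested receptors and adaptors, 6 of 6 cytokines, chemokines and death ligands, and 8 of 11 transcription factors and cytokine receptors were higher. The genes tested include CRTAM, XCL1 and XCL2, at 0.0109, 0.0301 and 0.0276 CPM in scrambled. They entered this test through the shRNA libraries, so their part in these counts and in the 30 adds nothing. Granule proteins had 4 higher and 2 lower of 8, and exocytosis genes 5 higher and 1 lower of 8 with a median of 0.26. Against wild-type, to be read beside the 13.3%, fewer were higher in each of these roles. There, 2 of 8 receptors and adaptors and 2 of 6 cytokines, chemokines and death ligands were higher. So were 5 of 11 transcription factors and cytokine receptors, 1 of 8 granule proteins (with 1 lower) and 0 of 8 exocytosis genes. Scrambled was below wild-type for 29 of 49 tested genes and above it for 4, where 34.1% of all genes were called and 17.9% called lower.

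Of the 11 genes higher against both HSB-2 controls, IL18R1, a subunit of the interleukin-18 receptor, was at 1.39 ± 0.023 CPM (SD, n = 2) in wild-type, 0.208 ± 0.036 in scrambled, 3.60 ± 0.032 under shRNA-4057 and 3.09 ± 0.31 under shRNA-4058. Its log2 difference was 4.01 ± 0.21 (SE) from scrambled and 1.26 ± 0.15 from wild-type (adjusted p = 2.69e-06 and 0.000991). CD244, a receptor of the SLAM family on NK and CD8 T cells, was at 13.3, 4.10, 33.0 and 39.6 CPM in the same order of groups and differed by 3.15 ± 0.12 and 1.44 ± 0.10. CD8A, the alpha chain of the CD8 coreceptor, was at 2.65, 0.599, 4.00 and 6.18 CPM and differed by 3.09 ± 0.29 and 0.93 ± 0.22. These 3 genes shared the order of GNLY, with scrambled lowest, then wild-type, then both hairpins. SRGN, the serglycin proteoglycan that packs granzymes into granules, differed by 1.85 ± 0.09 and 0.68 ± 0.07. TNF (1.72 ± 0.16 and 0.70 ± 0.16), IL2RB (1.71 ± 0.09 and 0.37 ± 0.08), SLAMF7 (1.64 ± 0.12 and 1.02 ± 0.11) and IL12RB1 (1.09 ± 0.11 and 0.40 ± 0.09) were higher against both controls too. CALR, the chaperone calreticulin that is also found in granules, was the gene lower against both (-0.48 ± 0.06 and -0.44 ± 0.06, adjusted p = 0.000316 and 0.0014).

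**Figure D5:**
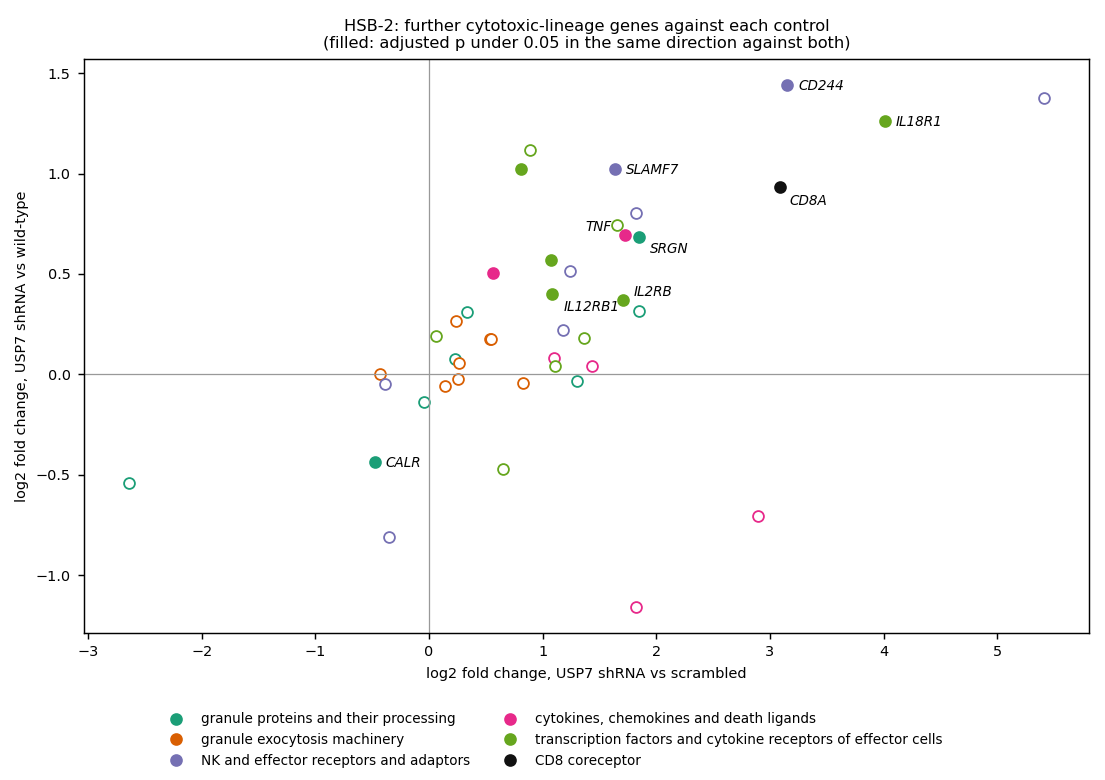
Log2 fold change of the further cytotoxic-lineage genes tested in HSB-2, USP7 shRNA against scrambled (x axis) and against wild-type (y axis), coloured by role and filled where the adjusted p was under 0.05 in the same direction against both. The 11 filled points at the upper right include IL18R1, CD244 and CD8A; the axes share the shRNA libraries.

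In Jurkat the same list gave 10 higher and 7 lower of 46 tested against scrambled, where 28.0% of all genes were called, and 2 higher and 2 lower of 46 against wild-type, where 8.41% were, again as a description. ZNF683, which encodes the tissue-residency factor Hobit, was the gene higher against both (0.422 CPM in wild-type, 0.167 in scrambled, 2.41 under shRNA-4057 and 1.94 under shRNA-4058). TNFSF10, the death ligand TRAIL, and CALR stood lower against both. In HSB-2, TNFSF10 was at 111, 42.5, 99.5 and 129 CPM in wild-type, scrambled, shRNA-4057 and shRNA-4058. ZNF683 was there at 2.18, 1.01, 1.17 and 1.98 CPM in the same order, with the means of both hairpins below wild-type.

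Over the 8 group means, the genes whose profile of log2(CPM + 0.5) was most like that of EOMES were SLC22A23 (Pearson r = 0.97), GRAPL, RESF1, ENSG00000272048 and GPCPD1. Among the cytotoxic genes themselves, EOMES was most like GZMK (r = 0.94), then PRF1 (0.83) and GZMM (0.83), and GZMK was like GZMM (0.92) and PRF1 (0.91). GNLY, NKG7 and TBX21 formed another set with r = 0.95 to 0.97 among them, and r for EOMES with these 3 was -0.61 to -0.40. GZMA was like neither, with r of 0.10 to 0.48 for the others. The 3 most alike genes were SYP, MTURN and STX18 for GZMK, ZNF821, RNF44 and CCDC88C for GZMA, and TLN1, PPP1R9B and PSMB8-AS1 for TBX21. They were SLC26A11, PACSIN1 and ATOX1 for GZMM, ENSG00000177946, SPHK2 and TCTA for PRF1, ATCAY, ZNF354C and SLC24A3 for GNLY, and VCL, APOBR and CYTH4 for NKG7. EOMES, GZMK, PRF1 and GZMM were higher in wild-type Jurkat, and GNLY, NKG7 and TBX21 in wild-type HSB-2, so r includes the difference between the lines. Within HSB-2, the group means of EOMES and GZMM had the order of GNLY, NKG7 and TBX21: scrambled lowest, then wild-type, then both hairpins. Those of GZMK and PRF1 did not. The 8 points come from 2 lines and share their libraries, so these values are given as a description.

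Neighbouring genes were examined within 200 kb. Of 9 annotated neighbours of EOMES in the table, 1 was expressed enough to be tested, the noncoding LINC02084 just downstream. In HSB-2 it stood at 0.0246 CPM in scrambled, 0.0934 in wild-type, 0.110 under shRNA-4057 and 0.237 under shRNA-4058. It entered the test against scrambled through the libraries where it was high, so no p is given for that difference. Against wild-type it was not called (0.74 ± 0.62, adjusted p = 0.427). Of 21 neighbours of GZMK and GZMA, 9 were tested in at least 1 comparison. In HSB-2, CDC20B stood at 0.0192 CPM in scrambled, 0.115 in wild-type, 0.211 under shRNA-4057 and 0.109 under shRNA-4058. It likewise entered the test against scrambled through the shRNA libraries, so no p is given for that difference. Against wild-type CDC20B was not called (0.51 ± 0.54, adjusted p = 0.53). DHX29, an RNA helicase gene at 21.9 to 31.9 CPM in the HSB-2 group means, was lower against both controls (-0.37 ± 0.11 and -0.39 ± 0.10, adjusted p = 0.0251 and 0.0267), while in Jurkat its log2 differences were 0.58 and 0.30, as a description. MTREX, another RNA helicase gene, was also lower against both HSB-2 controls (-0.39 ± 0.06 and -0.20 ± 0.05, adjusted p = 0.00066 and 0.0248). CCNO was higher against wild-type (0.56 ± 0.15, adjusted p = 0.0286), and its difference from scrambled was 0.40 ± 0.15 (adjusted p = 0.0589). MCIDAS was not called in HSB-2 (-0.43 ± 0.17 and 0.16 ± 0.19, adjusted p = 0.0712 and 0.573). ESM1, GZMAP1, ENSG00000251376 and ENSG00000240535 were too low to be tested in HSB-2, and stood under 0.3 CPM in every group mean.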

How the data were processed

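Total RNA of 16 libraries (8 groups of 2, by the labels) was ribo-depleted, prepared with a stranded kit and sequenced on a NovaSeq instrument. The authors aligned reads with an in-house BWA pipeline to GRCh37-lite and transcript collections and counted them per gene with HT-seq; the submitters' processing notes also name hg19, CASAVA, STAR and HTSeq 0.6.1p1. The deposited values were raw counts for 57820 Ensembl gene IDs; the annotation release and strand setting were not given in the sources used here. Symbols were matched by ID (55538 genes, 96.1%), and coordinates came from GENCODE 44 lifted to GRCh37.

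Counts were tested with edgeR 4.0.16 (TMM, filterByExpr, quasi-likelihood F-test, two-sided) in R 4.3.3, and p-values were adjusted by Benjamini-Hochberg over all genes tested; a gene was called at an adjusted p under 0.05. Pooled fits set 4 shRNA libraries against 2 controls of a line. Other contrasts came from 1 fit of all 16 libraries (23063 genes). SE was taken as the absolute log2 fold change divided by the square root of F. CPM was scaled by TMM factors (0.882 to 1.15). Replicates differed by more than sampling noise (chi-square per degree of freedom 5.41 to 20.2). The test was checked on simulated data. DESeq2 1.42.0 and other settings served as alternatives.

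The genes and lists were chosen with earlier results of these data known. Named genes were all 10 members, USP7, up to 8 further genes per direction called against both controls, the 3 most alike genes per member with a mean of at least 1 CPM (5 for EOMES), and tested genes within 200 kb of EOMES, GZMK or GZMA.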

Additional observations from a re-analysis of the deposited data

Results flagged for a closer look

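A gene was singled out where every library moved one way in HSB-2 and the other way in Jurkat under the same contrast. The difference between the lines was not tested, because the Jurkat comparisons share libraries with the choice of genes. GNLY was higher in HSB-2 under USP7 shRNA than in scrambled by 3.77 on the log2 scale and lower in Jurkat (-2.09), where no library held more than 21 counts. Against wild-type it was higher in HSB-2 by 1.35, and in Jurkat it was too low for the pooled test. GZMB showed the same opposition against scrambled (5.13 in HSB-2, -1.26 in Jurkat), on at most 35 counts in any library and 1 count in the HSB-2 scrambled pair, so its HSB-2 value depends on the prior count and is no measure of size. Between the controls, scrambled was below wild-type in HSB-2 and above it in Jurkat for GZMA (-1.21 and 0.70), GZMB (-4.96 and 1.26) and TBX21 (-0.81 and 0.12, the latter not called).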

How the results depend on the processing

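Each comparison was refitted with RLE size factors, with all genes holding a count, with DESeq2, with a replicate block, without each library in turn, and with other groupings. Log2 fold changes were also recomputed with a prior count of 2. These 164 values reuse the main p-value, so they could not change side of the threshold, and they are in the counts that follow. Of 1711 gene values under these settings, 1641 kept their direction and side of the threshold, 21 passed it only under the alternative, 47 lost it and 2 reversed. The reversed values were GZMK in Jurkat against wild-type with the hairpins as separate groups (-0.44) and GZMK in HSB-2 for shRNA-4058 against scrambled without the first shRNA-4058 library (-1.87, within -1.87 to 4.68 over the libraries left out). The cause was not tested. The count of members called in Jurkat shRNA against scrambled was 5. It was 8 with the hairpins as separate groups in the fit of all libraries (11837 genes called in all, against 5965), 2 with scrambled and wild-type together as the control, and 0 to 5 without 1 library: 0 without either scrambled library (1434 to 1873 genes called in all) and 3 without the second shRNA-4057 library. Against Jurkat wild-type the count was 0. It was 1 with all genes holding a count, 1 with DESeq2 and 7 with the hairpins separate (8570 genes called in all, against 1798, 3058 by DESeq2, 451 with a replicate block and 0 without either wild-type library). In HSB-2 against wild-type the count of 5 became 3 to 5 without 1 library, 3 without either wild-type library (1119 to 1210 genes called in all, against 5010, and 9490 with the hairpins separate). HSB-2 against scrambled ranged from 7 to 9 of 9 tested without 1 library, and 9 were called by DESeq2, with PRF1 added (8049 genes called in all, 12077 with the hairpins separate and 3801 to 4518 without a scrambled library). With both controls together EOMES (adjusted p = 0.0787) and GZMB (0.338) were lost there. Same-numbered libraries deviated together in some groups and not in others: the correlations of their deviations between groups of a line ran from -0.53 to 0.48, over 0.1 in 5 of 12 pairs. They were 0.43 to 0.48 among Jurkat wild-type, scrambled and shRNA-4058, and -0.53 to -0.37 for each of these with shRNA-4057, so the numbers were not taken as pairs. With the replicate block the Jurkat count against scrambled was 3 (4156 genes called in all), GZMK and PRF1 being lost, and no other member call changed. Low depth limits GZMB and GZMK in HSB-2 and GZMB, GNLY and KLRB1 in Jurkat.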
